A study of Homo sapiens with 4 samples.

Results

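The collagen chain genes were examined on 4 whole-transcript microarrays of DAOY, an established human cell line from a medulloblastoma, a tumour of the cerebellum. Every gene whose symbol reads COL, a number, A and a number was taken, which gave 43 chains of the 18417 genes with a probe set of exactly 1 symbol. Of these, 30 chains had a mean log2 intensity at or above 6.78, the 25th percentile of gene means, and entered the comparison with the 13813 genes at or above it. All cells carried a lentivirus, with 16 to 24 hours of transduction and 48 hours of recovery. They were grown for about 48 hours in medium with puromycin at 2 ug/mL, so the control shared the virus and the drug. The groups were 3 arrays of genotype ZFX KD, 1 for each of the anti-ZFX short hairpin RNAs H2, H3 and H4, and 1 control array with the scrambled hairpin SCR. Nothing in the labels tells whether a transduction was repeated, so a hairpin and its 1 array cannot be told apart. ZFX is an X-linked DNA-binding protein of the zinc finger kind, and the comparison asks which transcripts differ when its messenger RNA is depleted.

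Collagens are secreted matrix proteins whose chains wind around one another into a helix of repeated glycine-containing triplets. Fibrillar collagens (types I, II, III, V and XI, with XXIV and XXVII) assemble into cross-banded fibrils, type IV forms the sheet-like network of basement membranes, and type VI forms beaded filaments around cells. FACIT collagens sit on the surface of fibrils, multiplexins lie near basement membranes, and a few collagens span the plasma membrane. Within a type, different genes encode the partner chains of 1 trimer. In brain most fibrillar collagen is confined to vessels and meninges, whereas cultured adherent lines often make type I and type VI collagen.

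ZFX, the targeted gene, read 1430 in control cells against 745 (H2), 749.6 (H3) and 996 (H4), in the arbitrary units of deposited intensity. It was lower with every hairpin, at 52.1%, 52.4% and 69.6% of the control for H2, H3 and H4. Even so, the limma test used below did not call ZFX after adjustment. The intensities of different probe sets are not comparable, so no chain's level is set against another's. Any pair of arrays correlated at 0.992 to 0.996 in log2 intensity across probe sets, with at most 33 identical values. Of 12 measured markers of medulloblastoma and granule progenitors 11 were at or above the 25th percentile and GLI1 was below it. Also below were 5 of 7 neuronal markers (among them DCX and MAP2) and 5 of 8 neural stem and glial markers (among them NES). Summed in this order, these lists read 6518.6, 640.3 and 14035.6 on the scrambled array. With the hairpins the sums were 5793.0 to 6350.5, 661.4 to 730.8 and 14474.0 to 14958.5. Of 11 fibroblast and mesenchymal markers, 10 were above it and DCN was below, and their summed intensity was 6986 on the scrambled array and 5859 to 7853 with the hairpins. Of 7 epithelial markers 5 were at or above the percentile, KRT8 and KRT18 far above it, while EPCAM and CDH1 were below. The sum of the 7 was 11672.3 in the control against 9043.6 to 9831.7 with the hairpins. Such a sum weighs bright probe sets most, here KRT8 (4340 in the control) and KRT18 (6624). VIM alone made up most of the neural stem and glial sum, at 13031 in the control and 13543 to 13937 with the hairpins. Of 7 haematopoietic markers CD68, LAPTM5 and CD14 were above the percentile and 4, PTPRC among them, below, with a sum of 3815.5 against 2569.1 to 4326.9. Of 6 endothelial markers TIE1 and TEK were above it and PECAM1, CDH5, VWF and KDR below, with a sum of 2056.8 against 961.8 to 1461.0. The 5 epithelial and 2 endothelial markers above the percentile were all lower with all 3 hairpins (30.6% of all genes tested were lower and 16.9% higher). Among medulloblastoma and granule progenitor markers above it 5 were lower and 3 higher with all 3 hairpins. Fibroblast and mesenchymal ones gave 2 lower and 3 higher, neural stem and glial ones 0 and 2. Neuronal and haematopoietic ones gave 0 and 0. The part of these markers in the collagen values was not tested. In such bulk RNA fewer cells of a kind and less RNA per cell cannot be told apart.

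The share of collagen chains within 0.25 of the scrambled array on the log2 scale was about that of genes in general. By size on the H2 array it was not: 5 of the 30 chains were at least 1.5-fold lower, a larger share than the 5.61% of all genes. Of the 30 chains tested, 12 were lower with all 3 hairpins (40% of chains, against 30.6% of all genes tested), 5 were higher with all 3 (16.9% of all genes) and 13 lay on both sides (52.5% of all genes). By single hairpin, 18 chains were lower with H2 (56% of all genes), 21 with H3 (55.5%) and 19 with H4 (61%). The counts with all 3 hairpins became 10 lower and 7 higher when each array was centred on its median, which moved the shares of all genes to 23.3% lower and 23.6% higher. No chain was at least 1.5-fold lower with all 3 hairpins, as 0.311% of all genes were, and none was 1.5-fold higher with all 3, as 0.0507% were. In 17 of the 30 chains (56.7%) every hairpin stayed within 0.25 of the scrambled array on the log2 scale, as in 56% of all genes tested.

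The median difference over the 30 chains was -0.094 on the log2 scale, where the median of all genes tested was -0.035. By hairpin the chains' median came to -0.037 on the H2 array, -0.063 for H3 and -0.088 for H4, beside -0.030, -0.021 and -0.046 for all genes. With H4 left out, the median over the chains was -0.049. In limma's moderated test with Benjamini-Hochberg adjustment 0 of the 30 chains passed an adjusted p of 0.05, as did 0% of all genes, and 0 chains had an unadjusted p under 0.05 (2.48% of all genes were lower and 0.746% higher at that level). The smallest unadjusted p among the chains in limma was 0.0973, for COL6A1, and every chain had an adjusted p of 0.9998. With 1 array against 3, an exact permutation test cannot go below p = 0.25 (two-sided).

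**Figure D1:**
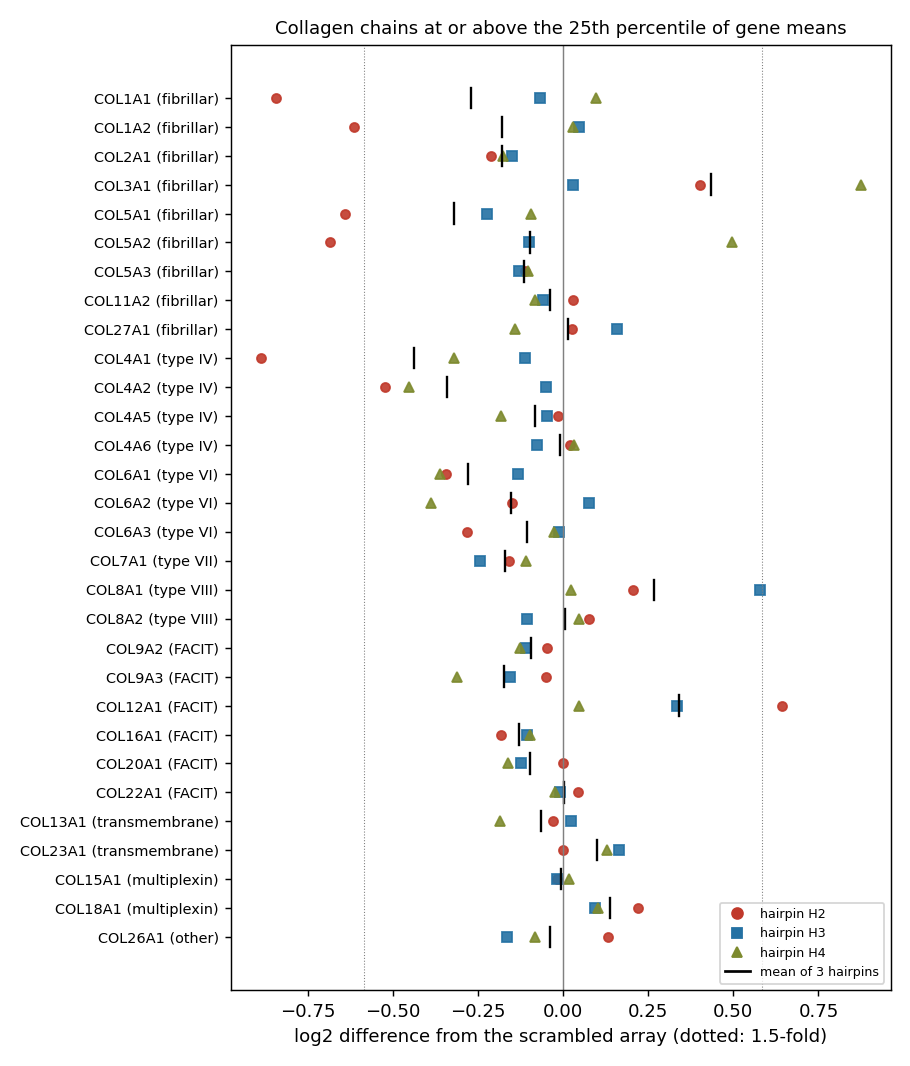
Log2 difference from the scrambled array for each of the 30 collagen chains tested (points: 1 array each for H2, H3 and H4; black bar: their mean; dotted lines: 1.5-fold), grouped by collagen class. Points beyond the dotted lines are 5 chains on the low side with H2, 1 on the high side with H2 (COL12A1) and 1 on the high side with H4 (COL3A1).

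Single hairpins gave the larger differences, and these sat mainly on the H2 array. With H2, 5 of the 30 chains were at least 1.5-fold lower, COL1A1, COL1A2, COL4A1, COL5A1 and COL5A2, a larger share than the 5.61% of all genes. COL12A1 was 1.5-fold higher with H2 (0.992% of all genes). With H3 no chain was past 1.5-fold in either direction (1.14% of all genes lower, 0.528% higher), though COL8A1 came to 1.49-fold on the high side. With H4 only COL3A1 was past it, on the high side (0.608% of all genes), while 2.17% of all genes were on the low side. H2 was the hairpin furthest from the scrambled array in 12 of 30 chains, or 40%, and in 46.6% of all genes. Each of these comparisons sets 1 array against 1 and has no replicate check.

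Type I collagen, the main fibril protein of bone, skin and tendon, is built of COL1A1 and COL1A2 chains. COL1A1 (probe set 8016646) read 4697 in control cells against 2621 (H2), 4483 (H3) and 5026 (H4). COL1A2 (probe set 8134263) read 3585 in control cells against 2343 (H2), 3704 (H3) and 3661 (H4). For both genes the H2 array alone stood low, and the other hairpins lay on either side of the scrambled value or just above it. The log2 differences of COL1A1 were -0.84, -0.067 and 0.098 with H2, H3 and H4 (mean -0.27 ± 0.50, SD, n = 3 hairpins), and those of COL1A2 were -0.61, 0.047 and 0.030 (mean -0.18 ± 0.38). Without H2 the means were 0.015 and 0.038, on the other side of zero. The difference of COL1A1 minus that of COL1A2 was -0.23, -0.11 and 0.068 on the H2, H3 and H4 arrays, so the partner chains stayed within 1.5-fold of each other on each array.

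Type III collagen, a trimer of COL3A1 chains found with type I in soft tissue, stood the other way on the H2 array. With H4 it lay above the control, as COL1A1 and COL1A2 did. COL3A1 (probe set 8046922) read 364 in control cells against 481 (H2), 371 (H3) and 667 (H4). It was highest with H4, next with H2, and about level with the control with H3. The log2 differences were 0.40, 0.029 and 0.87 (mean 0.44 ± 0.42, SD, n = 3; limma SE 0.33), and without H4 the mean was 0.22. On the H2 array, COL3A1 was above the control while COL1A1 was below it, a gap of 1.24 on the log2 scale, against 0.097 with H3 and 0.78 with H4.

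Type V collagen is a minor fibril component that starts fibril assembly and is made of COL5A1, COL5A2 and, in some tissues, COL5A3 chains. COL5A1 (probe set 8159142) read 935 in control cells against 599 (H2), 800.0 (H3) and 876 (H4). It was the fibrillar chain lowest on average, below the control with every hairpin, with log2 differences of -0.64, -0.22 and -0.093 (mean -0.32 ± 0.29, SD, n = 3). Its mean was -0.16 without H2. COL5A2 (probe set 8057620) read 321 in control cells against 199.7 (H2), 299 (H3) and 452 (H4). Its log2 differences of -0.68, -0.10 and 0.50 spanned both sides, with the widest SD over hairpins of any chain (0.59), and the mean of -0.10 became 0.20 without H2. COL5A1 and COL5A2 therefore differed together with H2 and apart with H4, where COL5A1 minus COL5A2 was -0.59. COL5A3 read 241 in the control and 224, 221 and 225 under H2, H3 and H4. The difference was small and similar on the 3 arrays (mean -0.11 ± 0.014, SD, n = 3; limma SE 0.11). All 3 differences share the 1 scrambled array, so their SD leaves out the error of that array.

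**Figure D2:**
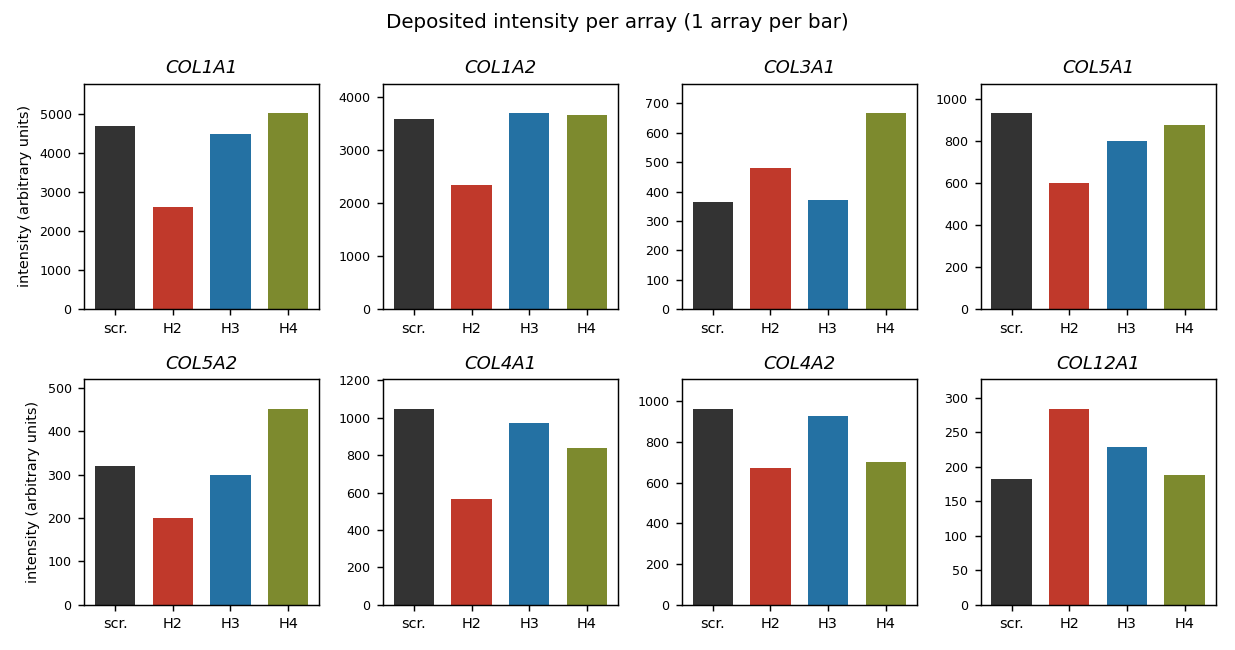
Deposited intensity (arbitrary units, linear scale from 0) of 8 collagen chains on the scrambled array (scr.) and on the H2, H3 and H4 arrays, 1 array per bar. COL1A1, COL1A2, COL5A1, COL5A2, COL4A1 and COL4A2 have their lowest bar with H2, COL3A1 has its highest with H4 and COL12A1 its highest with H2.

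The other fibrillar chains tested differed little. COL2A1, the chain of cartilage collagen, read 274 in the control and 237, 247 and 242 under H2, H3 and H4. Each hairpin lay below the shared control by a similar amount (mean log2 difference -0.18 ± 0.030, SD, n = 3; limma SE 0.11). COL11A2, a minor chain of cartilage fibrils, had log2 differences of 0.029, -0.059 and -0.081, and COL27A1 of 0.027, 0.16 and -0.14. COL11A2 has 2 further probe sets with values identical to each other on every array, and on these the differences were -0.12, 0.11 and -0.19, with H2 and H3 on the opposite side from the probe set used. Of the 9 fibrillar chains tested, 3 were lower with all 3 hairpins (30.6% of all genes), 1 higher (16.9%) and 5 on both sides (52.5%). Their median of -0.11 became 0.0097 without H2.

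Type IV collagen of basement membranes is most widely made as trimers of COL4A1 and COL4A2, and these genes held the lowest mean differences of the chains tested. They lie head to head on chromosome 13, transcribed away from each other. The stretch between their starts in RefSeq (GRCh38.p14, chr13:110307158-110307283, 126 bases, plus strand, which is the strand of COL4A2) is shown because both genes start from its ends and their values are compared next. Capitals mark, in this order, the CCAAT box, then the CTC box (letters CCCTCCCC), and last the GC box (letters GGGCGG).
COL4A1-COL4A2: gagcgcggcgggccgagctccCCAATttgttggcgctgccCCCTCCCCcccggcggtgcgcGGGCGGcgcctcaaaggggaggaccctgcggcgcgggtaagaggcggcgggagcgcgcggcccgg

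These letters were searched on both strands, and the matches in this stretch do not overlap. Over all 35116 RefSeq windows running from 250 bases before to 50 after a gene's start, CCAAT was found in 34.6%, CCCTCCCC in 13.6% and GGGCGG in 45%. The table's 26 windows of 20 of the 30 chains tested (all but COL1A1, COL1A2, COL2A1, COL3A1, COL5A2, COL6A1, COL8A1, COL9A3, COL20A1 and COL22A1) held them in 26.9%, 30.8% and 73.1%, and the windows of COL4A1 and COL4A2 overlap, so they share their matches. AGGCCT, the core of the motif described for ZFX, which reads the same on both strands, was in 10.9% of all windows and in 0 of these 26. A match describes letters in a window, not a bound site.

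COL4A1 (probe set 7972750) read 1048 in control cells against 567 (H2), 971 (H3) and 839 (H4). COL4A2 (probe set 7970033) read 964 in control cells against 671 (H2), 930.1 (H3) and 705 (H4). Both genes were below the control on all 3 arrays, lowest with H2 and closest to it with H3. The log2 differences were -0.89, -0.11 and -0.32 for COL4A1 (mean -0.44 ± 0.40, SD, n = 3; limma SE 0.32) and -0.52, -0.051 and -0.45 for COL4A2 (mean -0.34 ± 0.25; limma SE 0.22). Without H2 the means were -0.22 and -0.25. COL4A1 minus COL4A2 came to -0.36 on the H2 array, -0.060 for H3 and 0.13 for H4, so the 2 neighbours kept within 1.5-fold of each other on every array.

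The remaining type IV genes also lie in head-to-head pairs. COL4A5 and COL4A6, on the X chromosome with nearest starts 380 bases apart, read near the filter. COL4A5 was 144 in the control and 143, 139 and 127 under H2, H3 and H4 (mean log2 difference -0.081 ± 0.089, SD, n = 3), with a mean of -0.030 without H4. COL4A6 was 113 in the control and then 115, 107 and 116, with a mean of -0.0080 that turned positive with each array centred on its median and with cyclic loess. COL4A3 and COL4A4, whose starts lie 419 bases apart on chromosome 2, were both under the 25th percentile, at 83.2 and 94.3 on the scrambled array and 83.8 to 86.9 and 89.7 to 94.3 with the hairpins. Of the 4 type IV chains tested, 3 were lower with all 3 hairpins and 0 higher, beside 30.6% and 16.9% of all genes tested. With each array centred on its median 2 were lower, beside 23.3% of all genes.

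Type VI collagen, whose filaments anchor cells to the surrounding matrix, is assembled from COL6A1, COL6A2 and a longer chain such as COL6A3. COL6A1 (probe set 8069269) read 3777 in control cells against 2978 (H2), 3446 (H3) and 2942 (H4). It was lower with every hairpin, by more with H2 and H4 than with H3 (mean log2 difference -0.28 ± 0.13, SD, n = 3; limma SE 0.14), and its mean ranged from -0.35 to -0.24 when 1 hairpin was left out. COL6A2 (probe set 8069301) read 1872 in the control and 1687, 1975 and 1431 under H2, H3 and H4, so it was low with H4 and slightly high with H3. COL6A3 (probe set 8059905) read 4361 in the control and then 3589.9, 4329 and 4285, low mainly with H2. Of the 3 chains tested, 2 were lower with all 3 hairpins, beside 30.6% of all genes tested. With each array centred on its median 1 was lower, beside 23.3% of all genes. The partner chains did not keep a common order: COL6A3 minus COL6A2 came to -0.13 on the H2 array, -0.088 for H3 and 0.36 for H4.

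Type VII collagen forms the anchoring fibrils that tie epidermis to dermis. COL7A1 read 446 in the control and 399, 376 and 413 under H2, H3 and H4, below it each time (mean log2 difference -0.17 ± 0.068, SD, n = 3). The type VIII chains form hexagonal networks in vessel walls and the cornea. COL8A1 read 109 in the control and 126, 163 and 111 under H2, H3 and H4, high mainly with H3 (log2 difference 0.58), and its mean of 0.27 ± 0.28 was 0.11 without H3. On the scrambled array it lay at 6.77 on the log2 scale, just under the filter that its mean over arrays passed. COL8A2 lay on both sides, at 0.076, -0.10 and 0.046.

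Among the FACIT chains, COL12A1, which binds type I fibrils in tendon and other load-bearing tissue, had the largest mean difference. COL12A1 (probe set 8127563) read 182 in control cells against 284 (H2), 229 (H3) and 188 (H4). It was high with H2, less so with H3, and close to the control with H4 (log2 differences 0.64, 0.33 and 0.046; mean 0.34 ± 0.30, SD, n = 3), and its mean was 0.19 without H2. On the H2 array it therefore stood opposite to COL1A1 and COL1A2. COL16A1 (291 in the control and then 256, 270.0 and 272), COL9A2 (217 and then 211, 202 and 199) and COL9A3 were lower with all 3 hairpins, by means of -0.13, -0.093 and -0.17. COL9A3, a chain of the type IX collagen on cartilage fibrils, read 439.7 in the control and 425, 395 and 355 under H2, H3 and H4, and its mean was -0.10 without H4. COL20A1 (216, 216, 198 and 193 on the scrambled, H2, H3 and H4 arrays) and COL22A1 (152, 156, 151 and 149) lay on both sides of the control.

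The membrane-spanning and multiplexin collagens stayed within 0.25 of the control with each hairpin. COL23A1, a transmembrane collagen, read 453 in the control and 454, 509 and 496 under H2, H3 and H4, and COL13A1, another, read 264 and then 259, 269 and 233. COL18A1, the multiplexin whose end fragment is endostatin, read 379.8 in the control and then 443, 406 and 408, above it with each hairpin (mean log2 difference 0.14 ± 0.071, SD, n = 3). COL15A1, the related multiplexin, differed by at most 0.017 in size. COL26A1, of no larger class here, differed by 0.13, -0.16 and -0.083.

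The 13 chains under the 25th percentile entered no test. They were COL4A3, COL4A4, COL6A5, COL6A6, COL9A1, COL10A1, COL11A1, COL14A1, COL19A1, COL21A1, COL24A1, COL25A1 and COL28A1. Their single-hairpin differences ran from -0.22 to 0.16 on the log2 scale. With all 3 hairpins 5 were lower and 3 higher, where 30.6% and 16.9% of all genes at or above the percentile were. COL4A6 was the chain just inside the threshold, at a mean log2 intensity of 6.81, and COL9A1 the chain just outside, at 6.69. COL9A1 read 96.9 in the control and 105, 105 and 106 under H2, H3 and H4, and COL24A1 read 91.5 and then 98.0, 89.5 and 86.4. One further chain of the classes described, COL17A1, was not analysed here.

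**Figure D3:**
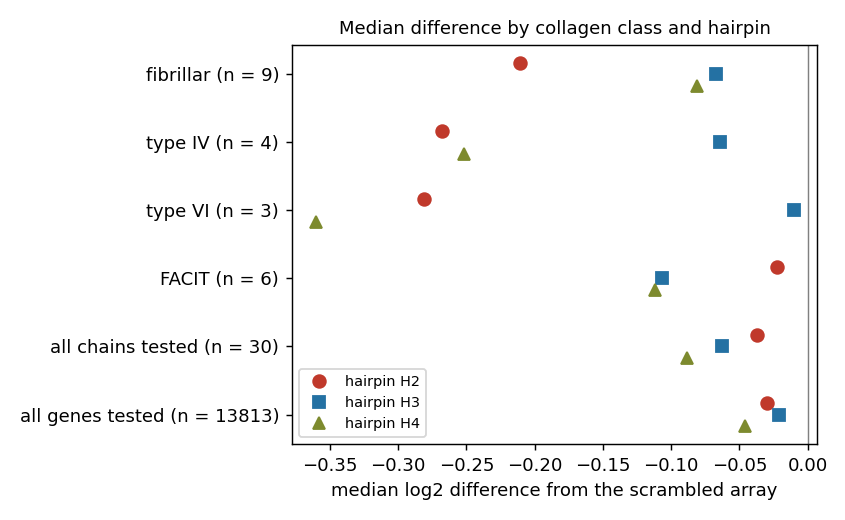
Median log2 difference from the scrambled array with H2, H3 and H4 (1 array each) over the tested chains of the 4 larger collagen classes, over all 30 chains and over all 13813 genes. Fibrillar, type IV and type VI chains have H2 medians of -0.21, -0.27 and -0.28, FACIT chains have -0.022, and with H3 no class median lies below -0.11.

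Genes that handle collagen after its synthesis were taken from lists by step, and in limma 0 of them passed an adjusted p of 0.05 over all genes tested. The counts of each list stand beside 30.6% of all genes lower and 16.9% higher with all 3 hairpins (23.3% and 23.6% with each array centred on its median). For hydroxylation, glycosylation and folding in the endoplasmic reticulum, 4 of 17 genes were lower and 1 higher with all 3 hairpins, with a median of -0.045. Without H4 there were 4 lower and 8 higher with both remaining hairpins and the median was 0.0054, and without H3 there were 9 lower and 1 higher (all genes: 39.4% lower and 27.9% higher without H4, 40.6% and 23.5% without H3). The gene higher with all 3 was FKBP14, a prolyl isomerase that assists collagen folding. It read 1933 in the control and 3196, 3049.9 and 3106 under H2, H3 and H4, so every hairpin was above the control by a similar amount (mean log2 difference 0.69 ± 0.034, SD, n = 3), with an unadjusted p of 0.00141 in limma. P3H2, which hydroxylates proline in type IV collagen, read 1108 in the control and then 647, 1057 and 857, lowest with H2 as COL4A1 and COL4A2 were (mean log2 difference -0.40 ± 0.35, SD, n = 3, or -0.22 without H2). PLOD2, the lysyl hydroxylase of the telopeptides, read 3352 in the control and then 2385, 2925 and 2835 (mean -0.31 ± 0.16). PLOD3 and SERPINH1, the collagen chaperone HSP47, were above the control with H2 and H3 and below it with H4.

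Of 9 genes of collagen export, 1 was lower and 0 higher with all 3 hairpins, with a median of 0.033. Without H2 there were 2 lower and 5 higher (40.1% and 23.5% of all genes) and the median was 0.083, and without H4 it was -0.046. The gene lower with all 3 was CREB3L1, a membrane-bound transcription factor known to raise type I collagen transcription in bone. It read 669 in control cells against 270.3 (H2), 406 (H3) and 518 (H4), the order in which COL5A1 also stood (log2 differences -1.31, -0.72 and -0.37; mean -0.80 ± 0.47, SD, n = 3). CREB3L2, a close relative, read 1128 in the control and then 1051, 1439 and 1372, and SEC24D, a coat protein of export vesicles, read 1430 and then 1382, 1694 and 1698. Both were just below the control with H2 and above it with H3 and H4.

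Of 7 tested genes that trim procollagen, 2 were lower and 1 higher with all 3 hairpins, and centring each array on its median made this 1 lower and 3 higher. FURIN, a convertase that activates several of these proteases, read 574 in the control and then 718, 883 and 945, above it each time (mean log2 difference 0.55 ± 0.21, SD, n = 3). BMP1, which removes the carboxy-terminal propeptide, and PCOLCE, its enhancer, were lowest with H2 and above the control with H4 alone, as COL1A1 was. BMP1 read 742 in the control and then 401, 639 and 769, and PCOLCE read 3845 and then 1947, 2589.9 and 4159.

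Of 7 cross-linking enzymes tested, 6 were lower than the scrambled array with all 3 hairpins and 0 higher (5 and 0 with each array centred on its median), and the median was -0.40, or -0.27 without H2. LOXL1, a lysyl oxidase relative known for elastin fibres, read 4435 in the control and 2709, 3531 and 2880.3 under H2, H3 and H4 (mean log2 difference -0.55 ± 0.20, SD, n = 3). TGM2, tissue transglutaminase, read 1348 in the control and then 527, 1076 and 1134, and LOXL3 read 1101 and then 592, 889 and 942, both lowest with H2. LOX itself lay on both sides, at 5945 in the control and then 6929, 4789.6 and 5165. Among these genes LOXL1 alone had an unadjusted p under 0.05, 0.0239 in limma's test, where 2.48% of all genes were lower at that level.

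**Figure D4:**
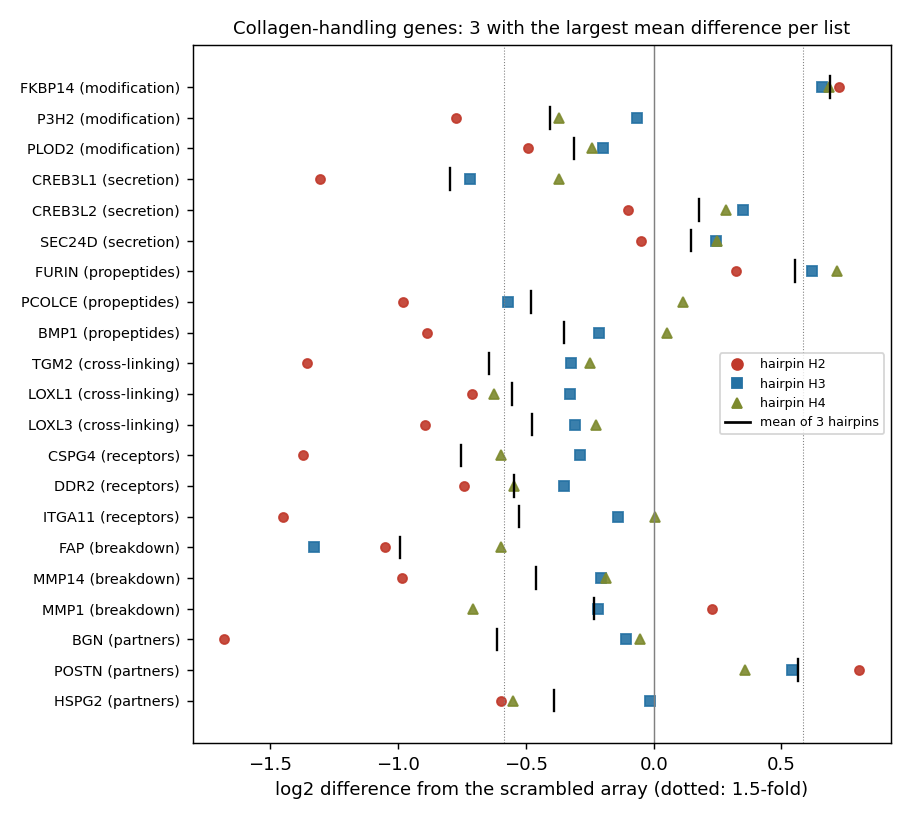
Log2 difference from the scrambled array for the 3 genes with the largest mean difference in each list of collagen-handling genes (points: 1 array each for H2, H3 and H4; black bar: their mean; dotted lines: 1.5-fold). FKBP14 lies past the 1.5-fold line on the high side and FAP on the low side with every hairpin (FAP also stands in the fibroblast marker list), and BGN, ITGA11, TGM2 and CSPG4 lie far to the low side with H2.

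Collagen receptors were on both sides. Of 8 genes tested, 3 were lower and 0 higher with all 3 hairpins, and the median of -0.13 was -0.025 without H2. DDR2, a receptor tyrosine kinase bound by fibrillar collagen, read 3696 in the control and 2212, 2896 and 2528 under H2, H3 and H4 (mean log2 difference -0.55 ± 0.19, SD, n = 3). It was below the control on each array, with an unadjusted p of 0.0252 in limma. ITGA11, an integrin chain that binds type I collagen, read 959 in the control and then 351, 871 and 963, low with H2 alone, as COL1A1 and COL1A2 were (mean log2 difference -0.53, or -0.067 without H2). CSPG4, a membrane proteoglycan that binds type VI collagen, read 356 and then 137, 292 and 236, lower each time.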

How the data were processed

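RNA of 4 cultures was labelled with biotin from 250 ng of total RNA each, per the labels' protocols, and hybridised to 1 array each. Per the submitters' processing notes the authors used RMA to summarise probes, and no version or genome build is given in the sources used here. The deposited values are intensities on a linear scale (medians 226 to 232), and log2 was taken of each. The number of arrays limits the precision, and p-values measure only the spread between these arrays, which may be technical.

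Of 33297 probe sets, 19460 have exactly 1 symbol in the platform annotation (1754 have several, 12083 none listed), and 19429 of these matched the RefSeq table by gene number. The probe set with the highest mean over the 4 arrays stood for each of 18417 genes. One probe set listing COL1A2 beside another gene was left out. The 13813 genes whose mean reached the 25th percentile were fitted together (limma 3.58.1, lmFit and eBayes with an intensity trend, R 4.3.3), 3 hairpins against the scrambled array, with 2 residual degrees of freedom and the lone array assumed to vary like the others. Benjamini-Hochberg adjustment ran over all genes tested, at 0.05. The fit was run on simulated data with known folds only to check its estimates, and how many changes it can call is not reported here. Counts by size used 1.5-fold. Differences are hairpin minus scrambled, and errors are SDs over 3 hairpins. Every difference shares the 1 scrambled array, so these SDs leave out its error, and a small SD does not make a difference precise.

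The members, classes and gene lists were chosen with earlier results of these data known, so they support nothing independently. Genes named by rule are ZFX, all chains found, and the 3 genes of each list with the largest mean difference. Of the chains under the filter, values per array or ranges are given for the nearest ones and those of the type IV pairs. Other genes (LOX, PLOD3, SERPINH1) and the single markers named from the cell type lists were chosen after their values were seen. Alternatives covered the filter, the scaling, the probe sets, the trend and each hairpin. Figures used matplotlib 3.10.9 (Python 3.11.15, pandas 2.3.3).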

Additional observations from a re-analysis of the deposited data

How the results depend on the processing

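No chain was called by limma, and none was 1.5-fold or 2-fold away with all 3 hairpins, under any alternative run. Counts by single hairpin did change. With centring, quantile normalization and cyclic loess 1 chain was at least 1.5-fold higher with H3 (97, 79 and 86 of 13813 genes). With quantile normalization 4 chains in place of 5 were at least 1.5-fold lower with H2 (645 of 13813 genes). The median of the chains was -0.042 without the intensity filter (43 chains), -0.17 with a filter at the 50th percentile (14 chains), -0.062 with each array centred on its median and -0.064 with quantile normalization, and -0.096 to -0.049 with 1 hairpin left out. Without the filter 8 chains were higher with all hairpins, and at the 50th percentile 7 were lower and 3 higher, since the filter sets how many chains are counted. Small means changed sign. Centring shifts every mean difference by the same amount, so slightly negative ones turned positive: COL15A1 was 0.027, COL4A6 0.024 and COL24A1 0.027. With quantile normalization COL15A1 was 0.0022, and with cyclic loess COL15A1 was 0.00070, COL4A6 0.00095 and COL24A1 0.0071. Why the means changed sign under these other scalings was not tested. With 1 hairpin left out the means ran from -0.45 to 0.015 for COL1A1, -0.29 to 0.038 for COL1A2, -0.39 to 0.20 for COL5A2, -0.46 to 0.0051 for MMP1, -0.12 to 0.024 for COL26A1, -0.057 to 0.093 for COL27A1, -0.030 to 0.061 for COL8A2, -0.016 to 0.017 for COL22A1, -0.028 to 0.027 for COL4A6, -0.058 to 0.034 for COL24A1 and -0.017 to 1.25e-06 for COL15A1. No paired analysis was possible because the control has 1 array and the labels pair none. Signal over background was not analysed here, so dim chains have only the intensity filter.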

Other observations

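Genes of collagen breakdown and of the matrix around collagen appear above only in the plot of handling genes. Their counts stand beside 30.6% of all genes lower and 16.9% higher with all 3 hairpins (23.3% and 23.6% with each array centred on its median). Of 7 tested breakdown genes, 4 were lower and 1 was higher with all 3 hairpins (3 and 1 with each array centred on its median), with a median log2 difference of -0.18, or -0.10 without H2. FAP, a surface protease that cuts collagen fragments, read 762 in control cells against 368 (H2), 303 (H3) and 503 (H4), and was at least 1.5-fold lower with each hairpin (mean log2 difference -0.99 ± 0.37, SD, n = 3). FAP and POSTN also stand in the fibroblast marker list. MMP14, a membrane-bound collagenase, read 2152 in the control and 1089, 1867 and 1890.0 under H2, H3 and H4, low mainly with H2. MMP1, the interstitial collagenase, read 289 in the control and then 338, 249 and 177, and lay on both sides.

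Of 14 tested matrix genes that associate with collagen, 6 were lower and 2 higher with all 3 hairpins, with a median of -0.17. POSTN, periostin, which binds type I collagen, read 148 in the control and 258, 215 and 189 under H2, H3 and H4, above it each time (mean log2 difference 0.57 ± 0.22, SD, n = 3). HSPG2, the basement membrane proteoglycan perlecan, read 318 and then 209.8, 314 and 217, low with H2 and H4 as COL4A2 was. BGN, a proteoglycan of collagen fibrils, read 1491 and then 465, 1383 and 1436, and its mean difference of -0.61 was -0.081 without H2. In limma 0 of these genes passed the adjusted test over all genes.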
